A study of Mus musculus with 61 samples.

Results

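The genes described here are those of red cell formation, namely the enzymes of heme synthesis, the globins, the membrane proteins and blood group carriers of the red cell, the transcription factors of the erythroid lineage and the receptors that feed it. They were taken by symbol from a list of 42 genes, of which 41 had a row among the 24421 genes counted in each of 61 RNA-seq libraries, and 1 was not analysed here. A listed gene was read in an experiment where it had at least 10 reads over the libraries of that experiment. This left 37 genes in the spleens, 35 in the splenic T cells and 34 in the Stat5a/b-null CD4+ T cells.

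Red cells arise from progenitors that respond to erythropoietin, whose receptor signals through JAK2 and STAT5, and they mature through nucleated erythroblasts that fill with hemoglobin and lose their nucleus. Heme is made in steps shared between mitochondria and cytosol, beginning with 5-aminolevulinate synthase, which in erythroid cells is the product of Alas2, and ending with the insertion of iron by ferrochelatase. In mice the red pulp of the spleen holds erythroblasts in adult life and expands them under demand, so that RNA of a whole spleen carries erythroid transcripts beside those of lymphocytes.

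All libraries come from C57BL/6 mice aged 2 months by the labels, and the study's methods name C57BL/6N for the making of the mutant mice. The spleens were unstimulated organs, with 4 libraries of WT mice, 5 of mice homozygous for the Stat5b point mutation Y665H and 7 of mice homozygous for Y665F, both mutations carried in the germline and so present in every cell type. The titles call this material splenocytes while the other labels and the study's methods call it spleen tissue. Splenic T cells were isolated with a kit and cultured with IL-2 and IL-7, with 4 libraries each from WT and Y665F mice and 3 from Y665H mice, and 3 further Y665F libraries had no interleukin. A library labelled as Y665H replicate 4 held, for each of the 24421 genes, the exact sum of the counts of replicates 1 and 2 (5327354 reads against 3310342 and 2017012), so it is no separate sample and was left out. CD4+ T cells of mice whose floxed Stat5a and Stat5b genes had been deleted by Cd4-Cre, pooled from lymph nodes and spleens, were activated and transduced with an empty retroviral vector or with a vector for unmutated STAT5B or its variants N642H, Y665F and Y665H, sorted for the vector's GFP and given IL-2, with 3 libraries per vector. The same vectors in WT CD4+ T cells, 3 libraries each, were read here as levels only. Nothing in the labels ties a spleen or T cell library to a named animal, so the p-values measure the spread between these libraries.

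A spleen library held 24203179 to 43330536 reads on genes, with a range of 2017012 to 27394249 in the splenic T cells and of 19735230 to 48757430 in the null CD4+ T cells. A point mutation leaves no trace in a count per gene, so the spleen labels could not be checked in this way. In the CD4+ T cells Stat5b stood at 2.83 to 9.82 CPM, the usual unit of counts scaled to library size, here with TMM factors within each experiment, in the null cells with the empty vector and at 185 to 203 in WT cells with it, and at 183 to 384 in the null cells with any of the 4 STAT5B vectors. In the spleens Y665H replicate 1 stood apart from the other 4 Y665H libraries, and the counts of each comparison that uses it are given with and without it.

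The most abundant red cell transcripts could not be read from these libraries. Hba-a1 and Hba-a2, which encode alpha globin, had 9 and 37 reads over all 16 spleens, Hbb-bs, a beta globin gene, had 34, and no spleen had more than 8 reads on any of them. Hbb-b1, Hbb-b2 and Hbb-bt had no read in any of the 61 libraries. Reads assigned to more than 1 gene, which are counted for none, made up 0.903% to 1.18% of read pairs in Y665H replicates 2 to 5, 0.547% in Y665H replicate 1, 0.613% to 0.927% in WT and 0.592% to 0.740% in Y665F spleens, and their part in the globin counts was not tested. Hba-a1 and Hba-a2 are near-identical copies whose reads a counter can split or discard, so their counts are uncertain. Hba-a2 had 0, 1, 0 and 0 reads in the 4 WT spleens, 1, 8, 6, 6 and 4 in Y665H and 0 to 4 in Y665F, and Hbb-bs had 1, 0, 3 and 0, then 1, 6, 7, 3 and 1, and 0 to 6. The spleen results therefore rest on the 35 genes that are no globin, and the identity of the material was read from those: Alas2, Slc4a1, Gata1 and Klf1 were all well above 0 in every spleen.

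The promoters of these genes are shown first because the erythroid factors in the list, GATA1 with TAL1 and KLF1, act on such sequences. RefSeq promoter sequences on GRCm38.p6 were matched for 32 of the genes and searched, on both strands, over the 250 bases before each start that the table gives, and a gene with several starts was counted once if any of its windows held the motif. A GATA motif (AGATAA or TGATAA) was present in 19 of 32, or 59.4%, against 18.8% of 27025 genes. A CACCC motif (CCNCNCCC) of the KLF type was present in 20, or 62.5%, against 48.5% of all genes, and both motifs, which do not share letters, stood in the same window in 7, or 21.9%, against 5.23%. The STAT motif TTCNNNGAA was found in 1, that of Gfi1b, or 3.12%, against 8.13%. The windows shown are 30 bases on the strand of the gene, with the matched letters in capitals, of Alas2 (chrX:150547319-150547348, plus strand), Klf1 (chr8:84901890-84901919, plus), Rhag (chr17:40811106-40811135, plus), Rhd (chr4:134864481-134864510, plus), Epb42 (chr2:121037086-121037115, minus), Epor (chr9:21963613-21963642, minus) and, for the STAT motif, Gfi1b (chr2:28622096-28622125, minus). They were chosen to show 1 gene each of heme synthesis, regulation, membrane and receptor roles, with the pair of Rh genes beside each other.
Alas2: ctactttgctttTTATCTttagcagaggcc
Klf1: tttgcctgggtcTTATCAgggaagacagcc
Rhag: agtcctctgctcTTATCAacactatacagc
Rhd: cccggcagcctgAGATAAgacctttggcgg
Epb42: gtctctatttccTTATCTcgttcaaacaga
Epor: ggtggctgtagcTTATCTgtccccagcctg
Gfi1b: ggttagaagcTTCTGTGAAgttttgataag
The GATA letters began 86 bases before the start used for Alas2, 80 for Klf1, 31 for Rhag, 43 for Rhd, 226 for Epb42 and 54 for Epor, and the STAT letters of Gfi1b 133 bases before its start. A match describes the letters and not a bound site, and whether any factor binds there was not tested in these libraries.

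In the spleens the erythroid genes were higher in Y665H than in WT mice as a group, across heme synthesis, membrane, regulators and receptors. The ranges of the Y665F and WT spleens overlapped for nearly all of these genes. Of 37 genes tested, 33 were called higher in Y665H than in WT and 0 lower, where 3.93% of all 19418 genes tested were called higher and 0.438% lower. The median log2 fold change of the 37 was 1.95, and over all genes it was 5e-04. A gene was called where edgeR's quasi-likelihood test gave a Benjamini-Hochberg adjusted p under 0.05 over all genes of the experiment and the log2 fold change, here Y665H minus WT, lay beyond 1 in either direction. The genes not called were Alas2, Bpgm, Car1 and the sparsely counted Hbb-bs. In a whole organ a gene's rise can come from more cells that carry it or from more RNA per cell, just as fewer cells of a type and less RNA per cell cannot be told apart.

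**Figure D1:**
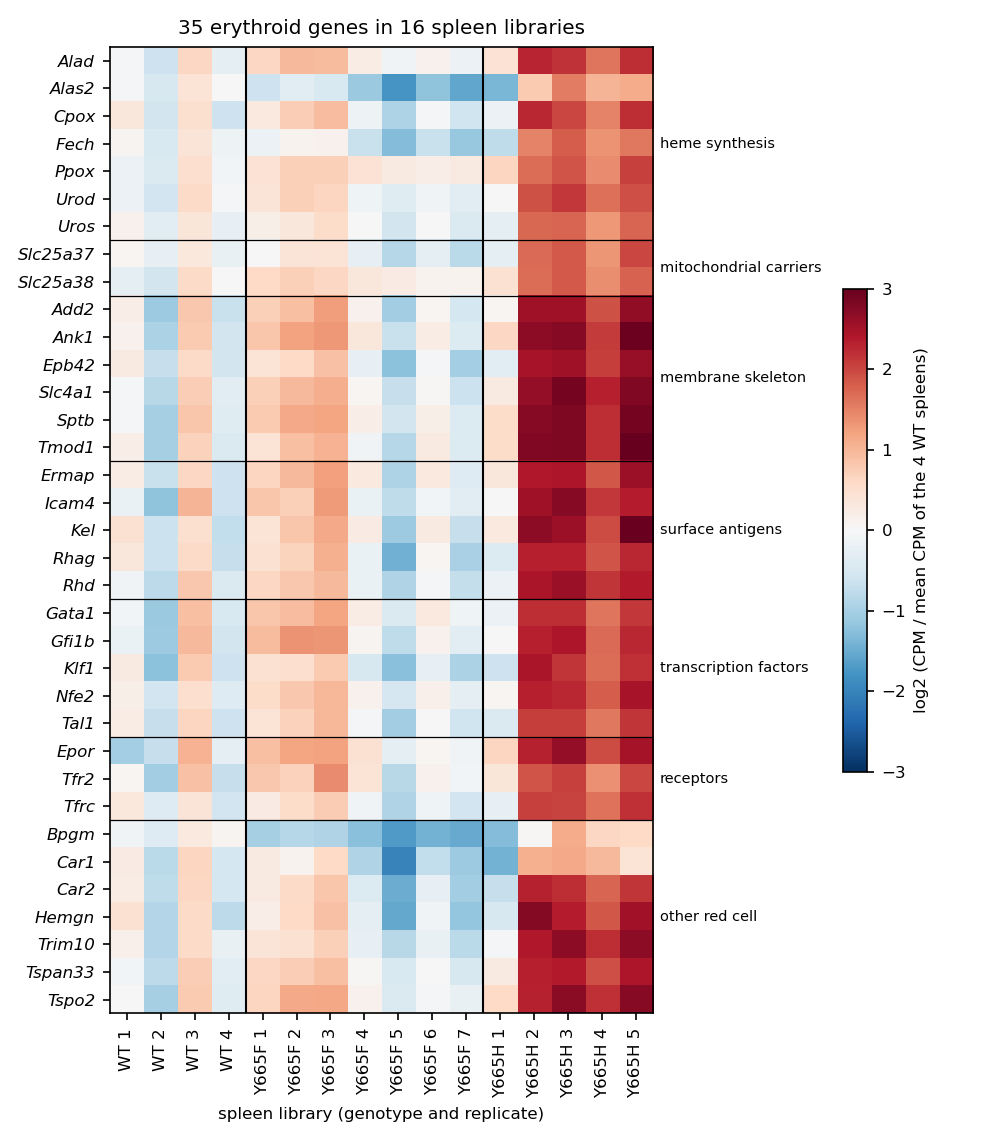
Levels of the 35 erythroid genes other than globins in each of the 16 spleen libraries, in columns by genotype and replicate, coloured by the log2 ratio of the CPM to the mean of the 4 WT spleens. Y665H replicates 2 to 5 lie above the WT mean for the large majority of genes, while Y665H replicate 1 lies from 0.375 to 1.56 times the WT mean.

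The pattern was carried by 4 of the 5 Y665H libraries. In 33 of 35 genes Y665H replicates 2 to 5 each lay above every WT library, which held for 12.8% of all genes, and the 2 exceptions were Bpgm and Car1. In all 35 genes Y665H replicate 1 lay below replicates 2 to 5, which held for 27.6% of all genes. That library lay within the range of the 4 WT spleens for 29 genes, where 47.9% of all genes did. It lay below every WT spleen for Alas2, Bpgm, Car1, Fech and Slc25a37, where 25.3% of all genes did, and above every WT spleen only for Ppox. Relative to the WT mean, the median over the 35 genes was 0.994 in Y665H replicate 1 and 4.64 in the mean of replicates 2 to 5. Without replicate 1, 34 of 37 genes were called higher and 0 lower, beside 5.17% and 0.491% of all genes, and Alas2 was the gene added. The 4 WT spleens also moved together, since WT replicate 3 had the highest value for all 35 genes, which held for 26.9% of all genes. The count of calls was lowest, at 25, without WT replicate 2.

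Among the 7 heme enzymes the gene at the head of the pathway had the smallest fold change and was the 1 not called. Alas2 (chrX:150547375-150570638 on GRCm38) stood at 518, 380.4, 712 and 529 CPM in WT replicates 1 to 4, at 205 in Y665H replicate 1 and at 919, 1553, 1089 and 1153 in Y665H replicates 2 to 5. Its lowest, median and highest values in the 7 Y665F spleens were 157, 248 and 433. Replicates 2 to 5 of Y665H lay above all WT spleens, Y665H replicate 1 below them, and 5 of the 7 Y665F spleens lay below every WT spleen. The log2 fold change of Y665H against WT was 0.88 (SE 0.40, adjusted p = 0.136) in the quasi-likelihood test of edgeR with p adjusted by Benjamini-Hochberg, and 1.17 (SE 0.28, adjusted p = 0.00481) without Y665H replicate 1. The same test gave all other adjusted p-values for the spleens.

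The 6 later enzymes were all called higher in Y665H than in WT. Alad, which joins 2 molecules of aminolevulinate, stood at 38.8, 26.1, 61.6 and 33.3 CPM in WT, at 54 in Y665H replicate 1 and at 195, 178, 123 and 187 in the other Y665H spleens, with 35.6, 46.7 and 78.4 as lowest, median and highest in Y665F. Uros, uroporphyrinogen III synthase, stood at 37.3, 26.8, 44 and 28.6 in WT, at 27.9 and then at 112, 115, 83.8 and 115 in Y665H, with 23.2, 33.9 and 50.3 in Y665F. Urod, the decarboxylase that follows it, stood at 36.5, 27.4, 60.9 and 39 in WT, at 40.7 and 154, 179, 129 and 156 in Y665H, with 31.8, 37.9 and 66.7 in Y665F. For these cytosolic enzymes the 4 higher Y665H spleens formed a block above every other spleen, and the log2 fold changes against WT ran from 1.41 for Uros to 1.88 for Alad. Cpox, which makes protoporphyrinogen, stood at 122, 65.5, 135 and 62.6 in WT, at 84.8 and 458, 387, 269 and 445 in Y665H and at 50.7, 94.1 and 183 in Y665F. Ppox, the oxidase after it, stood at 35.4, 29.4, 56.4 and 37.8 in WT, at 61.8 and 127, 147, 106 and 164 in Y665H and at 45.5, 53.9 and 65 in Y665F. Fech, ferrochelatase, stood at 246, 172, 307 and 209 in WT, at 137 and 656, 817, 590.2 and 703 in Y665H and at 94.7, 148 and 256 in Y665F. Ppox was the 1 gene of the 35 for which all 5 Y665H spleens lay above every WT spleen, as 4.22% of all genes did, with a log2 fold change of 1.61 (SE 0.23, adjusted p = 0.000974). Cpox changed by 1.77 (SE 0.44, adjusted p = 0.00894) and Fech by 1.31 (SE 0.39, adjusted p = 0.0238), and the call of Fech was lost without WT replicate 1, 2 or 4 or Y665H replicate 3 or 5, where its adjusted p reached up to 0.0874.

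The mitochondrial carriers that serve this pathway moved with it. Slc25a37, mitoferrin 1, which imports iron into erythroid mitochondria, stood at 407, 331, 490.3 and 334 CPM in WT, at 323 in Y665H replicate 1, at 1271, 1389, 985 and 1559 in the other Y665H spleens and at 215, 331 and 523 as lowest, median and highest in Y665F. Slc25a38, which brings in glycine, stood at 14.7, 12, 26.4 and 17.5, at 24.2, at 55.9, 63.3, 46.1 and 59.9 and at 18.9, 22.2 and 29 in the same order. Their log2 fold changes of Y665H against WT were 1.50 (SE 0.35, adjusted p = 0.00657) and 1.50 (SE 0.25, adjusted p = 0.00154). Among 20 other genes of heme and iron handling, 7 were called higher and 0 lower, beside the same 3.93% of all genes. The median log2 fold change of those 20 was 0.62. The genes called included Abcb10, a mitochondrial transporter that works with mitoferrin, at 1.93, Abcb6, a porphyrin transporter, at 1.60 and Blvrb, biliverdin reductase B, at 1.47.

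**Figure D2:**
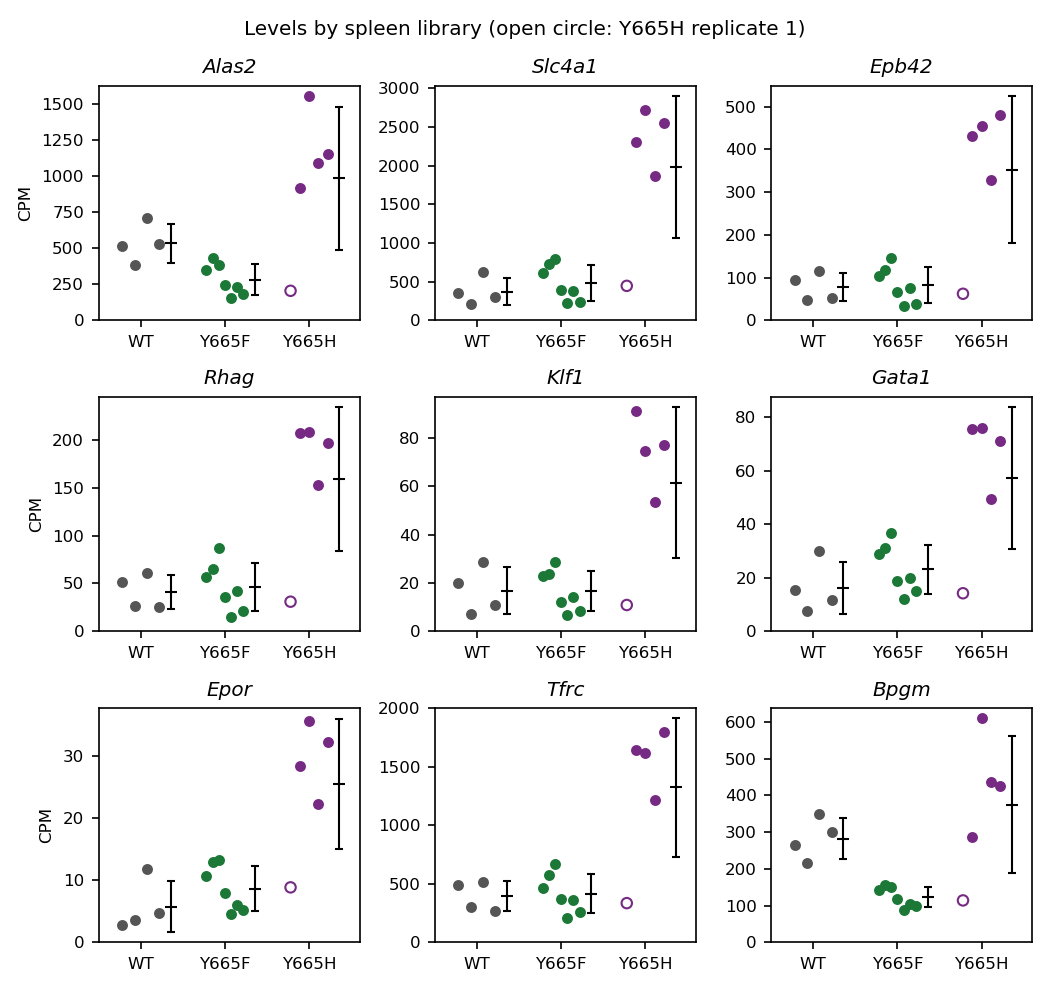
CPM of selected erythroid genes in every spleen library by genotype, on linear axes from 0, with 1 point per library, Y665H replicate 1 as an open circle, and the mean of all libraries with its SD as a line with bars. For Slc4a1 the 4 higher Y665H spleens lie between 1873 and 2725 CPM, above the highest WT value of 626 and the highest Y665F value of 792.

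The 6 genes of the membrane and its skeleton were all called higher in Y665H than in WT, with a median log2 fold change of 2.41. Slc4a1 (chr11:102348824-102366203, minus strand), the anion exchanger known as band 3, stood at 359.6, 211, 626 and 297 CPM in the 4 WT spleens, at 447 in Y665H replicate 1 and at 2310.4, 2725, 1873 and 2546 in Y665H replicates 2 to 5, with 231, 389.8 and 792 as lowest, median and highest in Y665F. Epb42, the band 4.2 protein bound to it, stood at 94.6, 48.5, 116 and 53.3 in WT, at 62.3 and 432, 455, 329 and 481 in Y665H and at 33.2, 76.1 and 145 in Y665F. Ank1, ankyrin, which ties band 3 to spectrin, stood at 116, 55.5, 184 and 72.6 in WT, at 166 and 691, 711, 456 and 829 in Y665H and at 67.2, 135 and 266 in Y665F. In each of them Y665H replicate 1 fell among the WT spleens and the other 4 Y665H spleens stood well clear of both other genotypes. Sptb, beta spectrin, stood at 125, 65.1, 232 and 101 in WT, at 191 and 865, 907, 605 and 962 in Y665H and at 89.8, 149.6 and 298 in Y665F. Add2, beta adducin, which caps the spectrin and actin network, stood at 55.1, 22.4, 83.2 and 30.2, at 49.9 and 278, 279.9, 178 and 300.2, and at 23.3, 52.5 and 113. Tmod1, tropomodulin 1, which caps the pointed ends of actin, stood at 8.48, 3.71, 11.8 and 5.48, at 10.8 and 50.6, 51.7, 34.3 and 58.1, and at 4.1, 8.95 and 15.2. The log2 fold change of Y665H against WT was 2.41 (SE 0.48, adjusted p = 0.00314) for Slc4a1 and 2.48 (SE 0.46, adjusted p = 0.00231) for Tmod1, which had the highest of the 6, and 2.17 (SE 0.51, adjusted p = 0.00685) for Epb42, which had the lowest.

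The 5 genes of blood group antigens were called higher as well. Rhag, the glycoprotein that carries the Rh complex, stood at 52, 26.1, 60.7 and 25.4 CPM in WT, at 31 and 207, 208, 152 and 196 in Y665H and at 15.1, 42.6 and 86.7 in Y665F. Rhd, the Rh protein itself, stood at 30.7, 19, 57.4 and 24.2, at 29.2 and 179, 196, 146 and 171, and at 17.6, 31.9 and 64.7. Kel, the endopeptidase of the Kell antigen, stood at 92.5, 43.1, 94.9 and 40.4, at 83.7 and 433, 399, 262 and 528, and at 31.7, 81.2 and 149. For both Rh genes and for Kel, Y665H replicates 2 to 5 lay above all other spleens and replicate 1 among the WT spleens. All 5 blood group genes had a GATA motif in a promoter window. Ermap, which carries the Scianna antigens, stood at 144, 78.2, 191 and 79.9 in WT, at 157 and 651, 668, 449 and 736 in Y665H and at 64.6, 152 and 289 in Y665F. Icam4, an adhesion molecule that carries the Landsteiner-Wiener antigen, stood at 1.44, 0.72, 3.38 and 1.08, at 1.67 and 9.71, 11, 7.17 and 8.53, and at 0.979, 1.56 and 3.99. Their log2 fold changes against WT ran from 1.95 (SE 0.52, adjusted p = 0.0136) for Rhag to 2.33 (SE 0.49, adjusted p = 0.00386) for Kel.

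The 5 erythroid transcription factors were all called higher, with a median log2 fold change of 1.87. Gata1, the X-linked zinc finger factor that drives the erythroid program, stood at 15.4, 7.49, 30.1 and 11.9 CPM in WT, at 14.2 in Y665H replicate 1, at 75.6, 75.8, 49.5 and 71.1 in Y665H replicates 2 to 5 and at 12, 19.8 and 36.8 as lowest, median and highest in Y665F. Klf1, the activator of adult beta globin, stood at 20.1, 7.13, 28.8 and 10.8, at 10.9 and 90.9, 74.3, 53.4 and 77, and at 6.96, 14.1 and 28.7. Tal1, the partner of GATA1 in a shared complex, stood at 69.5, 37, 92.7 and 38.7, at 44 and 251, 252, 179 and 264, and at 28.9, 59.6 and 119. None of these had a Y665H value in replicates 2 to 5 that reached down to the WT or Y665F spleens. Nfe2, a leucine zipper factor of erythroid and megakaryocyte cells, stood at 28.2, 16.7, 35.3 and 19.1 in WT, at 26 and 126, 118, 87.9 and 137 in Y665H and at 17.5, 27.4 and 49.4 in Y665F. Gfi1b, a repressor of the same lineages and the 1 gene with the STAT motif among the promoters searched, stood at 6.7, 3.6, 15.1 and 5.22, at 7.76 and 38.7, 41.4, 25 and 36.8, and at 4.5, 8.37 and 19.5. Both put the same 4 Y665H spleens on top. The log2 fold changes against WT were 1.82 (SE 0.45, adjusted p = 0.0094) for Gata1, 1.87 (SE 0.53, adjusted p = 0.0188) for Klf1 and 1.97 (SE 0.52, adjusted p = 0.0126) for Gfi1b. Nfe2 at 2.00 (SE 0.40, adjusted p = 0.00308) and Tal1 at 1.74 (SE 0.46, adjusted p = 0.0137) marked the ends of the 5.

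The receptor of erythropoietin and both transferrin receptors were called higher. Epor stood at 2.82, 3.53, 11.7 and 4.75 CPM in WT, at 8.85 in Y665H replicate 1, at 28.4, 35.6, 22.3 and 32.2 in Y665H replicates 2 to 5 and at 4.63, 7.89 and 13.2 in Y665F. Tfrc, the transferrin receptor that brings iron into erythroblasts and into dividing cells in general, stood at 494, 301, 517 and 268, at 336 and 1644, 1622, 1218 and 1802, and at 213, 368 and 667. Tfr2, a second transferrin receptor found with the erythropoietin receptor, stood at 5.85, 2.74, 10.4 and 3.5, at 7.28 and 20.9, 23.3, 14.5 and 22.5, and at 3.18, 7.48 and 15.1. Epor and Tfrc separated Y665H replicates 2 to 5 from all other spleens, and Tfr2 from the WT spleens but not from every Y665F spleen. The log2 fold changes against WT were 2.15 (SE 0.45, adjusted p = 0.00366) for Epor, 1.75 (SE 0.40, adjusted p = 0.00625) for Tfrc and 1.65 (SE 0.43, adjusted p = 0.0125) for Tfr2. Of 8 known targets of erythropoietin and STAT5 signalling that are no member, 1 was called higher, beside 3.93% of all genes. It was Bcl2l1, the survival gene that encodes BCL-XL, at a log2 fold change of 1.30 (WT mean 43.9 CPM, Y665H mean 108). The log2 fold changes of the other 7 ran from −0.56 for Socs2 to 0.68 for Pim1, which are named here after their values were seen, and both passed the adjusted p but not the fold minimum, at 0.00248 and 0.00158.

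The remaining red cell genes held the exceptions. Car2, carbonic anhydrase 2, stood at 449, 226, 597 and 269.7 CPM in WT, at 238 and 1920.4, 1792, 1287 and 1702 in Y665H and at 137, 327 and 683 in Y665F. Car1, its relative in the red cell, stood at 105, 50.2, 137 and 60.7, at 33.1 and 185, 195, 172 and 118, and at 21.9, 52.7 and 134. Bpgm, which makes the 2,3-bisphosphoglycerate that lowers the oxygen affinity of hemoglobin, stood at 264, 215, 348 and 300.0, at 114 and 288, 612, 436 and 425, and at 87.1, 117 and 156. Car1 and Bpgm were the genes whose higher Y665H libraries overlapped with the WT spleens, and their log2 fold changes were 0.67 (SE 0.49, adjusted p = 0.372) and 0.41 (SE 0.31, adjusted p = 0.393), or 0.96 (SE 0.43, adjusted p = 0.117) and 0.67 (SE 0.21, adjusted p = 0.0266) without Y665H replicate 1. Car2 changed by 1.85 (SE 0.52, adjusted p = 0.0186). Hemgn, hemogen, a nuclear protein of erythroid cells, stood at 154, 61.1, 168 and 65.3 in WT, at 79.8 and 751, 578, 409 and 638 in Y665H and at 38.8, 105 and 206 in Y665F. Trim10, an erythroid ring finger protein, stood at 61.2, 30.2, 82.4 and 47.3, at 53.2 and 292, 356, 258 and 355, and at 31.1, 47 and 90.4. Those 2 genes again put 4 Y665H spleens above the rest. Tspan33, a tetraspanin, stood at 34.4, 21.2, 61.4 and 29.5, at 43.9 and 184, 192, 140.2 and 195, and at 26.1, 37.3 and 69. Tspo2, a translocator protein of the erythroid lineage, stood at 9.67, 4.75, 16.3 and 7.37, at 14.4 and 46.8, 62.2, 43.3 and 63.5, and at 7.04, 10.4 and 21.2. Log2 fold changes of these 4 ran from 2.04 (SE 0.41, adjusted p = 0.00308) for Tspan33 to 2.27 (SE 0.44, adjusted p = 0.0026) for Tspo2.

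Without WT replicate 2, the lowest of the WT spleens for 30 of the 35 genes, the calls of Car2, Fech, Gfi1b, Hemgn, Klf1, Rhag, Tal1 and Tfr2 were lost, and Fech, Car2 and Klf1 were also lost without WT replicate 4. Of the globin rows, Hba-a2 was called higher at a log2 fold change of 3.62 on at most 8 reads per spleen and is not interpreted. The levels of the genes themselves, compared per kilobase of exon in the WT spleens, placed Alas2 first at 222 CPM per kilobase, then Car2 at 159, and Tfr2 last at 1.3. On that scale Bpgm at 78.6 ± 15.6 (SD, n = 4), Slc4a1 at 76.3 ± 36.6 and Car1 at 70.6 ± 32.3 are neighbours whose means lie within their spread.

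**Figure D3:**
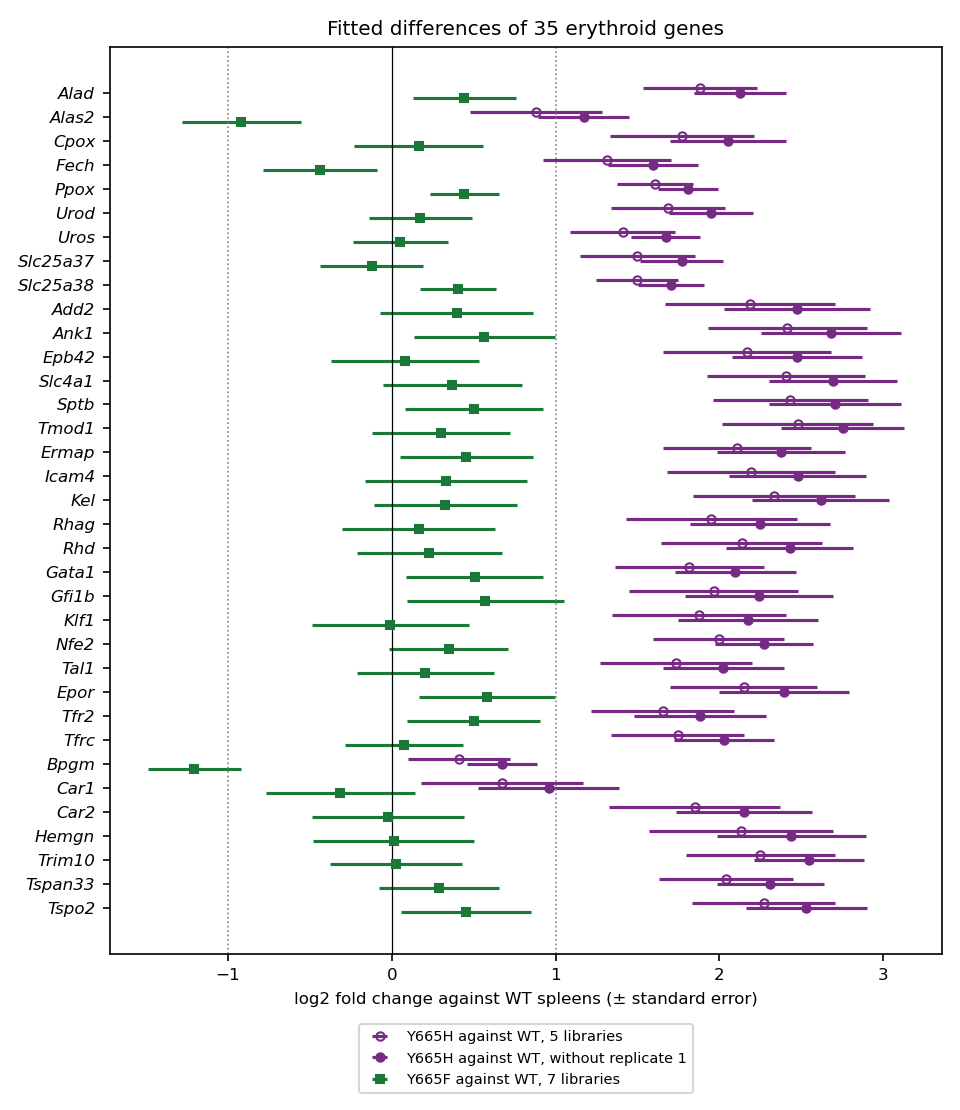
Log2 fold changes of each erythroid gene in the spleens with standard errors as bars, for Y665H against WT, Y665H against WT without Y665H replicate 1, and Y665F against WT. Leaving out Y665H replicate 1 moves the median of the 37 genes tested, 2 globin genes included, from 1.95 to 2.24, and Y665F against WT has a median of 0.30.

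Between Y665F and WT spleens only 1 of the 37 genes was called, beside 1.20% of all genes in either direction. It was Bpgm, lower in Y665F at a log2 fold change of -1.21 (SE 0.28, adjusted p = 0.0115), where 0.628% of all genes were called lower. All 7 Y665F values of Bpgm lay below every WT value, as did those of 5.99% of all genes, and the other 34 genes overlapped between both genotypes. DESeq2 also called 1, and 2 genes had an unadjusted p under 0.05 in edgeR's test. With the replicate number as a block the count was 0, at a log2 fold change of −1.06 for Bpgm and an adjusted p of 0.103. Alas2, the other gene under that unadjusted p, differed by -0.92 (SE 0.36, adjusted p = 0.103). No regulator, membrane gene or receptor was called, which with these standard errors does not show equal levels. The log2 fold changes were -0.01 (SE 0.48, adjusted p = 0.994) for Klf1, 0.51 (SE 0.42, adjusted p = 0.454) for Gata1, 0.37 (SE 0.42, adjusted p = 0.61) for Slc4a1 and 0.58 (SE 0.41, adjusted p = 0.382) for Epor. Within the Y665F group, replicates 1 to 3 lay above replicates 4 to 7 for 34 of the 35 genes, all but Ppox, which held for 8.39% of all genes. The label holds nothing that separates these replicates.

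Against Y665H, the Y665F spleens were lower for 34 of 37 genes and higher for 0, where 4.01% of all genes were called lower and 1.27% higher, and without Y665H replicate 1 they were lower for 36, beside 5.23%. The comparison shares its Y665H libraries with that against WT. For Slc4a1 the log2 fold change of Y665F against Y665H was -2.04 (SE 0.39, adjusted p = 0.00116), for Trim10 -2.23 (SE 0.37, adjusted p = 0.000446), for Alas2 -1.80 (SE 0.34, adjusted p = 0.00114), for Gata1 -1.31 (SE 0.37, adjusted p = 0.0147) and for Bpgm -1.62 (SE 0.27, adjusted p = 0.000446). Car1 was not called at -0.99 (SE 0.42, adjusted p = 0.0956), and was at -1.26 (SE 0.37, adjusted p = 0.0133) without Y665H replicate 1. Y665H replicates 2 to 5 lay above every Y665F spleen for 33 of the 35 genes, against 12.8% of all genes, with Car1 and Tfr2 the exceptions.

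Some proportions among erythroid genes also differed between genotypes, which was noticed after the values were seen and is given as a description with no test. How often other pairs of genes separate in this way was not counted. The CPM of Alas2 divided by that of Slc4a1 in the same library, which does not depend on how libraries are scaled, ranged from 1.14 to 1.80 in the 4 WT spleens, from 0.398 to 0.582 in the 5 Y665H spleens and from 0.488 to 0.755 in the 7 Y665F spleens. Both mutant genotypes lay below the lowest WT spleen, and Y665H replicate 1, whose levels resemble those of WT, lay with the mutants at 0.459. Bpgm over Slc4a1 behaved alike, from 0.557 to 1.02 in WT, from 0.124 to 0.256 in Y665H and from 0.189 to 0.411 in Y665F. Fech over Slc4a1 ranged from 0.491 to 0.812 in WT, from 0.276 to 0.315 in Y665H and from 0.323 to 0.441 in Y665F. Epb42 over Slc4a1 overlapped between the genotypes, at 0.180 to 0.263 in WT, 0.139 to 0.189 in Y665H and 0.144 to 0.198 in Y665F. So did Klf1 over Slc4a1, at 0.0338 to 0.0559 in WT, 0.0244 to 0.0393 in Y665H and 0.0301 to 0.0376 in Y665F.

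**Figure D4:**
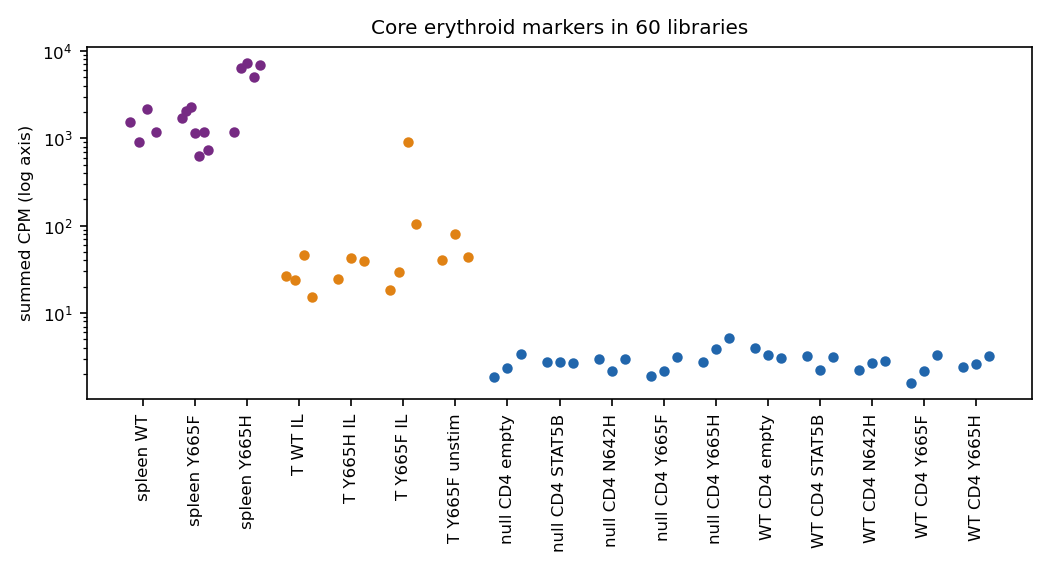
Summed CPM of 11 core erythroid genes per library in spleens, splenic T cells and null and WT CD4+ T cells, on a log axis, with 1 point per library. Y665H replicates 2 to 5 reach 5064 to 7273 CPM and WT spleens 910 to 2153, while 1 of 4 Y665F T cell libraries with IL-2 and IL-7 reaches 915 CPM and another 104.

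Other genes of the erythroid lineage moved with the listed ones. The counts of each list stand beside 3.93% of all genes called higher in Y665H than in WT and 0.438% lower. Of 29 further erythroid genes tested, 19 were called higher in Y665H than in WT and 0 lower, and the 4 largest were Dmtn (dematin, a cytoskeletal protein) at a log2 fold change of 2.56, Tmcc2 at 2.52, Slc43a1, an amino acid transporter, at 2.15 and Sox6, a repressor of embryonic globin, at 2.32, with a median of 1.44 over the 29. Hbq1b, a theta globin gene named here after its value was seen, had a mean of 3.31 CPM in WT and 14.3 in Y665H, a log2 fold change of 2.10, and was called. All 14 proliferation genes were called higher, with a median of 1.39 and Mki67 at 1.72, as were 10 of 12 neutrophil genes, with a median of 1.80 and Prtn3, a granule protease, at 2.80. Of 14 megakaryocyte and platelet genes, 9 B cell genes, 9 T cell genes, 10 red pulp macrophage genes and 8 housekeeping genes 0 were called in either direction, with medians of 0.26, −0.17, −0.56, 0.05 and 0.04. Of 9 progenitor genes 1 was called higher, Mpo, the myeloperoxidase of granulocyte precursors, at 2.26, and their median was 0.07.

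The same libraries stood out in these lists. The summed CPM of 11 core erythroid genes, themselves members (Alas2, Slc4a1, Epb42, Rhag, Klf1, Ermap, Tspo2, Trim10, Hemgn, Kel and Rhd), was 1537, 910, 2153 and 1179 in WT, 1173 in Y665H replicate 1 and 6312, 7273, 5064 and 6945 in Y665H replicates 2 to 5, and ranged from 634 to 2259 in Y665F. That of the proliferation genes was 1450 to 2942 in WT, 2204 in Y665H replicate 1, 5613 to 8548 in the other Y665H spleens and 1355 to 3568 in Y665F. In both lists Y665H replicate 1 lay within the WT range and the other 4 above every spleen of the other genotypes. That of the neutrophil genes was 233 to 356 in WT, 143 in Y665H replicate 1, 416 to 1633 in the other Y665H spleens and 418 to 1013 in Y665F. The T cell genes summed to 679 to 782 in WT, 654 in Y665H replicate 1, 438 to 499 in the others and 861 to 1140 in Y665F, and the B cell genes to 4232 to 4770, to 4651, to 3207 to 3883 and to 3202 to 4044. Lymphocyte sums were thus lower in the 4 Y665H spleens where erythroid sums were higher, and the part of cell composition in any single gene's value was not tested.

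Splenic T cells do not belong to the erythroid lineage, and their libraries were read for these genes as a check on what the isolation carried along. The core sum was 15.3 to 46.4 CPM in WT and 24.3 to 42.4 in Y665H T cells with IL-2 and IL-7, 40.1 to 80.9 in Y665F T cells without interleukin, and 18.3, 29.4, 915 and 104 in the 4 Y665F libraries with IL-2 and IL-7. Replicate 3 of that last group stood apart from all other T cell libraries, and it had only 2851451 reads on genes. Replicate 4 had the next highest core sum, not far above the highest library without interleukin. The B cell genes moved with the core sum, at 23.2, 42.6, 735 and 219 CPM in the same 4 libraries against 18.1 to 118 in WT and 29.3 to 46.2 in Y665H. The T cell genes stood at 3147, 2804, 1155 and 1894 against 2551 to 3527 in WT. The neutrophil genes were higher in all 4 of these libraries, at 92.1, 93.8, 326 and 93.2 CPM against 11.04 to 22.3 in WT, with 25.4, 73.2 and 99.6 in Y665H and 77.3 to 227 in Y665F without interleukin. Of 12 neutrophil genes tested, 7 were called higher in Y665F than in WT T cells with IL-2 and IL-7 and 0 lower. Of all genes, 1.06% were called higher and 0.265% lower. The 4 largest were S100a8 at a log2 fold change of 4.01, S100a9 at 3.68, Ngp at 3.47 and Mmp9 at 3.32. In replicate 3 all of these non-T-cell sums were at their highest and the T cell sum at its lowest, and replicates 1 and 2 had core and B cell sums within the WT range but not the neutrophil sum. The part of other cells in the results was not tested.

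Set against the mean of the WT spleens, the median of the 35 genes was 31.4% in Y665F replicate 3, 8.91% in replicate 4 and 1.67% to 6.67% in the other 12 T cell libraries, with both kinds of library scaled in separate fits. In replicate 3 the shares were uneven, from 0 for Gfi1b, Car1 and Icam4 and 7.02% for Klf1 to 95.4% for Alas2, 106% for Bpgm and 219% for Tmod1. Alas2 stood at 5.23, 12.3, 510.0 and 58.4 CPM in the 4 Y665F libraries with IL-2 and IL-7 and at 13.4, 9.74, 31.3 and 4.49 in WT. Slc4a1 stood at 0.598, 1.16, 229 and 17.7 in the former, at 0.492, 0.799, 3.08 and 0.594 in WT, at 0.279, 4.82 and 2.67 in Y665H and at 2.48, 12.8 and 2.56 in Y665F without interleukin. Replicate 3 exceeded every other library for both, and replicates 1 and 2 fell among the WT libraries for Slc4a1.

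Of 35 genes tested, 5 were called higher in Y665F than in WT T cells with IL-2 and IL-7 and 0 lower, where 1.06% of all 22295 genes were called higher and 0.265% lower. They were Slc4a1 at 5.51 (SE 1.18, adjusted p = 0.0173), Epb42 at 2.50 (SE 0.58, adjusted p = 0.0255), Kel at 4.04 (SE 1.01, adjusted p = 0.042), Car2 at 2.99 (SE 0.72, adjusted p = 0.0321) and Trim10 at 4.06 (SE 0.98, adjusted p = 0.0335). All 5 calls were lost without Y665F replicate 3 and 0 genes were called there, and all 5 were lost as well without WT replicate 4 or when both groups were fitted alone, while DESeq2 called 15. Without Y665F replicates 3 and 4, an alternative chosen after seeing the data, 0 were called and 1 gene had an unadjusted p under 0.05. Against the 3 Y665H libraries 1 gene was called higher and 0 lower, where 1.84% of all genes were called higher and 0.655% lower. It was Epb42, which stood at 4.68, 7.15, 57.2 and 9.01 CPM in Y665F and at 1.95, 1.93 and 2.94 in Y665H, a log2 fold change of 2.94 (SE 0.72, adjusted p = 0.0225). That call was lost without Y665F replicate 3, without any 1 of the 3 Y665H libraries, where the adjusted p reached up to 0.107, or when both groups were fitted alone, and DESeq2 called 6. Without Y665F replicates 3 and 4, 0 were called, with 5 at an unadjusted p under 0.05. With the added-up Y665H library entered as deposited, which counts the same reads again, 8 were called higher. Between Y665H and WT T cells edgeR called 0 of the listed genes, with 2 at an unadjusted p under 0.05, and DESeq2 called 0, with 0, where 0% of all genes were called in either direction by edgeR.

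Against Y665F T cells without interleukin, 2 genes were called higher with IL-2 and IL-7, where 2.04% of all genes were. The paper describes T cells without interleukin as sequenced right after isolation, while those with interleukins had been cultured. Effects of culture and of the interleukins therefore cannot be told apart here. Gata1 stood at 5.48, 6.57, 4.11 and 6.83 CPM with the interleukins and at 0.827, 1.87 and 1.18 without, a log2 fold change of 2.15 (SE 0.41, adjusted p = 0.00216). Tfrc stood at 286, 298, 291 and 209 with and at 81.7, 180.1 and 107 without, a log2 fold change of 1.14 (SE 0.27, adjusted p = 0.0132). Every library with interleukins lay above every one without for both genes, and the share of all genes that do so was not counted. Both were called with replicates 3 and 4 left out. The call of Tfrc was lost without replicate 1 or 3 of the unstimulated group, at an adjusted p of up to 0.145.

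In the CD4+ T cells, which were sorted and cultured, erythroid transcripts were close to absent, with a core sum of 1.88 to 5.15 CPM in the null and 1.57 to 3.97 in the WT libraries. A few listed genes that other cells use as well responded to the STAT5B vectors. The comparisons of the vectors share the 3 empty vector libraries. Gata1 stood at 1.09, 1.06 and 1.39 CPM with the empty vector, at 2.59, 3.16 and 2.94 with STAT5B, at 3.43, 2.77 and 3.37 with N642H, at 3.54, 3.56 and 2.26 with Y665F and at 1.76, 1.43 and 1.99 with Y665H. Car2 stood at 1.74, 1.54 and 5.21, at 4.58, 3.27 and 6.16, at 9.86, 9.32 and 18.2, at 7.7, 10.6 and 20.4 and at 1.51, 1.8 and 1.64 in the same order. Nfe2 stood at 3.22, 1.87 and 1.25, at 0.982, 1.01 and 1.02, at 0.851, 0.537 and 0.975, at 0.917, 0.664 and 0.492 and at 2.21, 1.23 and 1.33. Gata1 was above the empty vector in every library of the other 4 vectors, though its difference with Y665H was not called. Car2 was above it in every N642H and Y665F library, and Nfe2 was below it in every STAT5B, N642H and Y665F library. The share of all genes that separate in this way was not counted, so these separations are a description only.

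**Figure D5:**
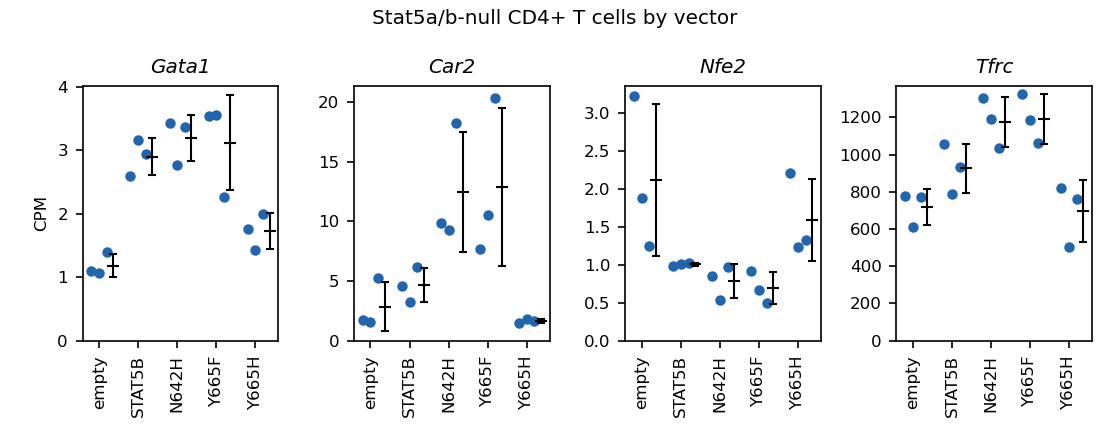
CPM of Gata1, Car2, Nfe2 and Tfrc in Stat5a/b-null CD4+ T cells by vector, on linear axes from 0, with 3 libraries per vector as points and the mean with SD as a line with bars. Gata1 lies at 1.06 to 1.39 CPM with the empty vector and at 2.26 to 3.56 with STAT5B, N642H or Y665F.

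Of 34 genes tested, STAT5B gave 1 call, Gata1 at a log2 fold change of 1.30 (SE 0.25, adjusted p = 0.0136), where 0.358% of all 20113 genes were called higher, and this call was lost without empty vector replicate 1 or 2 or STAT5B replicate 2, at an adjusted p of up to 0.0902. N642H gave 3, beside 1.58% of genes higher and 1.30% lower, with Gata1 at 1.43 (SE 0.25, adjusted p = 0.00111), Car2 at 2.15 (SE 0.43, adjusted p = 0.00309) and Nfe2 lower at -1.45 (SE 0.38, adjusted p = 0.0169). Y665F gave the same 3, beside 1.39% higher and 0.979% lower, with Gata1 at 1.41 (SE 0.25, adjusted p = 0.00156), Car2 at 2.20 (SE 0.43, adjusted p = 0.00329) and Nfe2 lower at -1.60 (SE 0.38, adjusted p = 0.012). Nfe2 rested on few libraries, since its call was lost without empty vector replicate 1 for both constructs, without N642H replicate 1 or 2 for the former and without Y665F replicate 2 for the latter. Without empty vector replicate 3, whose Car2 value was the highest of the 3, N642H gave 5 calls, adding Bpgm at −1.08 and Sptb at −1.03, both lower. With the replicate number as a block, which in these cells pairs the libraries, STAT5B gave 2 calls, adding Nfe2 at −1.01 with an adjusted p of 0.0374.

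Y665H gave 0 calls in edgeR's test, with 2 genes at an unadjusted p under 0.05, and 0 in DESeq2, where 0.0249% of all genes were called higher and 0 lower. Gata1 differed by 0.55 (SE 0.25, adjusted p = 0.896) there. Tfrc, which stood at 778, 609 and 774 CPM with the empty vector, at 1055, 789 and 934 with STAT5B, at 1304, 1190.3 and 1034 with N642H, at 1328, 1186 and 1061 with Y665F and at 821, 506 and 759.7 with Y665H, passed the adjusted p but not the fold minimum with N642H at 0.71 (SE 0.17, adjusted p = 0.00923) and with Y665F at 0.73 (SE 0.17, adjusted p = 0.00984). Bpgm did so in the other direction, at -0.90 (SE 0.16, adjusted p = 0.00168) with N642H and -0.90 (SE 0.16, adjusted p = 0.00194) with Y665F. Epor differed by -0.07 (SE 0.51, adjusted p = 0.985) with STAT5B and Alas2 by 0.12 (SE 0.39, adjusted p = 0.949), both near the lowest counts. In WT CD4+ T cells with the empty vector, scaled apart from the null cells and read with no test, Gata1 stood at 9.38, 13.4 and 4.76 CPM, Car2 at 3.12, 4.63 and 3.15 and Tfrc at 1128, 1041 and 895.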

How the data were processed

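RNA-seq was analysed for 60 mouse libraries. Another, labelled replicate 4 of the Y665H T cells with IL-2 and IL-7, equalled replicates 1 and 2 added up for all 24421 genes and was left out, although the planned fit held all 15 T cell libraries. The authors trimmed reads with Trimmomatic 0.36, aligned them with STAR to mm10 and counted them per gene with HTSeq 0.9.1, and they deposited raw counts of 24421 genes by symbol and 5 closing lines of unassigned reads, which entered neither library sizes nor tests (54.9% to 63.5% without a gene in the spleens). Total RNA libraries were depleted of ribosomal RNA with a strand-specific kit, and the strand setting and annotation of the counting are not given in the sources used here. For the CD4+ T cells, all 30 libraries carry a floxed Stat5a/b genotype in the labels, so the background was read from the titles.

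Counts were fitted in R 4.3.3 with edgeR 4.0.16 (TMM, glmQLFit, glmQLFTest), 1 fit per experiment over genes with at least 10 reads in it (19418 in spleens, 22295 in splenic T cells, 20113 in null CD4+ T cells). A call needed a Benjamini-Hochberg adjusted p below 0.05 together with a log2 fold change past 1. The standard error was the absolute log2 fold change over the square root of F. The fits were tested on simulated data. The alternatives were RLE size factors, scaling without the listed genes, filterByExpr, no filter, no fold minimum, DESeq2 1.42.0, a fit of only the groups compared, a block for the replicate number and leaving out each library, and leaving out 2 Y665F T cell libraries and entering the added-up library were added after seeing the data. Replicate numbers paired the libraries in null CD4+ T cells, where 30 of 30 same-numbered pairs correlated above 0.1 (median 0.47), and not in spleens (4 of 13) or splenic T cells (4 of 19).

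The members, gene lists and tests were chosen with earlier results of these data known. Members called in the spleens, with a log2 fold change beyond 1 there or fixed by role are given per library for the WT and Y665H spleens. The Y665F spleens are given as lowest, median and highest, and the globins in reads. Of other lists up to 4 genes are given, those called with the largest change. The symbol Epb42 is Epb4.2 in the files. Gene positions and exon lengths are from GENCODE on GRCm38. Promoter sequences and the positions of their windows are from RefSeq on GRCm38.p6, the assembly of mm10. At the lowest depth of 2017012 reads, counting error limits genes near 1 CPM. The WT CD4+ T cells were not tested.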

Additional observations from a re-analysis of the deposited data

Results flagged for a closer look

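Of 105 sets of spleen values (35 genes in 3 genotypes), 21 held a library set off from its group by Dixon's 95% limit, where chance gives about 1 in 20. The gap was taken as a share of the range on log values of the CPM. On the CPM themselves, as printed below, these gaps are smaller shares of the range. In all 21 it was Y665H replicate 1, and in all of them it was the lowest of the 5 Y665H spleens. Among the heme and iron genes it had 205 CPM of Alas2, 137 of Fech, 40.7 of Urod, 27.9 of Uros and 336 of Tfrc. Among membrane and surface genes it had 447 CPM of Slc4a1, 62.3 of Epb42, 191 of Sptb, 31.0 of Rhag, 29.2 of Rhd and 1.67 of Icam4. Among transcription factors it had 14.2 CPM of Gata1, 10.9 of Klf1, 26.0 of Nfe2 and 44.0 of Tal1. Among the other red cell genes it had 33.1 CPM of Car1, 238 of Car2, 79.8 of Hemgn, 53.2 of Trim10, 43.9 of Tspan33 and 14.4 of Tspo2. The genes share the library, so the 21 are not independent of each other. Its proliferation and neutrophil sums were the lowest of the Y665H spleens too, and its B and T cell sums the highest, and what sets this library apart was not tested.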

How the results depend on the processing

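Most results kept their size and side of the threshold, with 159 alternative values of the counts of genes called and the summed levels within 1.5 times or 1 SD of the value reported and 35 outside. For the single genes followed, 1588 alternative values stayed on their side, 78 lost and 5 gained a call, and none changed direction. These were all listed genes tested in the spleen comparisons with Y665H, and Alas2, Bpgm, Slc4a1 and Gata1 in Y665F against WT spleens. Elsewhere they were the genes called. Other genes with changes near 0 could change sign. Klf1 in Y665F against WT spleens was at -0.01, and at 0.22 with the block.

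In the spleens, leaving out single libraries gave 25 to 34 calls for Y665H against WT, 1 for Y665F against WT and 31 to 36 for Y665F against Y665H. The replicate number as a block gave 30, 0 and 29, and in spleens and splenic T cells those numbers do not pair the libraries. In splenic T cells, Y665F against WT gave 2 calls with the block or with filterByExpr, 15 with DESeq2, 0 with the groups compared alone, 0 to 16 with single libraries left out and 0 without Y665F replicates 3 and 4. Y665F against Y665H gave 4 with no filter on low counts, 6 with DESeq2, 0 with those groups alone, 0 to 9 with single libraries left out, 0 without both and 8 with the added-up Y665H replicate 4 entered as deposited. With IL-2 and IL-7 against none the range was 1 to 7. In null CD4+ T cells, STAT5B gave 2 with the block and 0 to 1 with single libraries left out. Without a fold minimum N642H and Y665F gave 6 each, and 2 to 5 and 2 to 4 with single libraries left out. The block changed no other call there. The cause of these shifts was not tested, beyond the fewer samples or genes that some alternatives hold.

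Globin levels could not be read, labels tie no library to an animal, and the depth of Y665F T cell replicate 3 leaves genes near 1 CPM to few reads.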
